A study of Mus musculus with 9 samples.

Results

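The translation initiation, elongation and termination factors are read on this array by 72 probe sets of 51 genes, out of 12488 probe sets in all. They are the probe sets whose platform annotation gives a single gene symbol that begins with Eif1 to Eif6 (without Eif2s3x and Eif2s3y) or with Eef1 or Eef2, together with those of Etf1, Gspt1, Pabpc1 and Abce1. The symbols set the membership, but the family was picked with earlier results of the same contrast known, in which Gspt1 and one probe set of Etf1 were among the larger differences. The differences between knockout and wild type are therefore given as a description, without a test of the members.

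These factors run the cytosolic ribosome. In initiation, eIF2 brings the initiator tRNA, eIF1 and eIF1A help the small subunit scan for the start codon, eIF3 holds the complex together, and eIF4E, eIF4G, eIF4A and eIF4B prepare the capped end of the mRNA. Elongation factors deliver aminoacyl-tRNA and move the ribosome along, and release factors end the chain at a stop codon. Much of the control in skin, as in other tissues, is known to act on the proteins, through phosphorylation of eIF2 and of the eIF4E-binding proteins, which an RNA measurement does not see.

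RNA came from whole skin of unirradiated mice, 5 Cd1d knockout (Cd1d -/-) and 4 wild type (Cd1d +/+), all on the inbred C57BL/6 background. CD1d presents lipids to natural killer T cells. The labels call the mice age and sex matched without giving an age or the design of the deleted allele, and each mouse had its own Affymetrix MG-U74 array, which reads a gene through short oligonucleotides grouped into probe sets. The comparison asks how skin without CD1d differs before any ultraviolet exposure. Signals are in arbitrary units of the MAS5 program, scaled by the authors to a common level, and no probe set's level is set against that of another probe set.

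Cd1d1, the targeted gene, read 58.2, 65, 79.6, 47.6 and 51.1 in knockout mice 1 to 5, against 112.4, 101.1, 91 and 130 in wild-type mice 1 to 4. Its knockout values all lay below the wild-type values, though not at zero, and whether its probes lie in the deleted part is unknown. Of the 6 listed keratinocyte genes on the array, 4 were kept (Krt1, Krt10, Lor and Flg), and Krt5 and Krt14 were not. The 4 were read at high signals, with sums of 13211 to 24661 in knockout mice and 14603 to 16645 in wild-type mice. The 10 skeletal muscle genes of the skin muscle layer were read as well. The arrays of knockout mouse 4 and wild-type mouse 2 stood apart over all genes. They held the highest or lowest of the 9 values for 41.2% and 36.7% of kept probe sets, where the other arrays did so for 11.8% to 22.0%. The larger differences that leaned most on either are given with and without it. The deposited values have 9 decimals in knockout mice 3, 4 and 5 and wild-type mouse 1 and 7 decimals in the other 5 arrays, for a reason the labels do not give. Probe sets with a letter before the _at ending (_s, _f, _r, _g, _i) follow looser design rules, and close copies such as Eef1a1 and Eef1a2, Gspt1 and Gspt2, or Eif3j1 and Eif3j2 may share signal, so values of these are uncertain in that respect.

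The analysis kept each probe set that reached the 40th percentile of its array, a signal of 43.4 to 53.3, in at least 4 of the 9 arrays. This kept 7658 probe sets, of which 52 belong to 42 of the translation factor genes. The 20 that were not kept read between 0.8 and 97.0. Of these, 9 belong to genes with another probe set that was kept, and 11 are the only probe sets of 9 genes, among them Eif4e, the cap-binding protein itself, and Eif5a, a factor that helps ribosomes through difficult peptide bonds. Eif4h (a helper of the eIF4A helicase), Eif2ak2, Eif2ak3 and Eif2ak4 (kinases that phosphorylate eIF2), Eif4enif1 (a protein that carries eIF4E), Eef1b2 and Eef1g (subunits of the exchange factor of elongation factor 1A) complete the list. The better of the Eif4e probe sets read 19.2, 23.6, 9.5, 24.7 and 13.1 in knockout mice 1 to 5, against 23.4, 18.8, 32.9 and 25.8 in wild-type mice 1 to 4. Signals this low carry a large relative error, and without detection calls they do not show that a gene is silent. Eif4g1 and Eif2s1 were not analysed here.

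The translation factors as a family differed little between knockout and wild-type skin. Of the 52 kept probe sets 31 had higher and 21 lower values in the knockout, with a median log2 difference (knockout minus wild type) of 0.03, beside 0.01 over all 7658 kept probe sets. With each array centred on its median, 25 of the 52 (48.1%) had higher values, against 42.8% of all, so the balance of signs depends on the scaling. The size of the difference was at most 0.3 in 39 of the 52 (75.0%), against 76.3% of all kept probe sets, and at least 0.5 in 3 of them (5.77%), against 8.25%. The 95% interval of the difference lay wholly between -0.5 and 0.5 for 26 of the 52, and for 37.2% of all kept probe sets, so for the other members a difference of that size was within the error. In whole tissue, fewer cells of a type and less RNA per cell cannot be told apart.

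By limma, with Benjamini-Hochberg adjustment over all 7658 probe sets, 0 of the 52 passed an adjusted p of 0.05, where the background was 0.0522% of all kept probe sets. At an unadjusted p under 0.05 limma called 5 of the 52, 3 higher and 2 lower, or 9.62% beside a background of 9.40%. The groups did not overlap for 3 of the 52, or 5.77%, beside 3.21% of all kept probe sets: 2 lay higher in the knockout, beside 1.83% of all, and 1 lower, beside 1.38%. Since the family was chosen with this contrast known, these counts support nothing on their own.

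**Figure D1:**
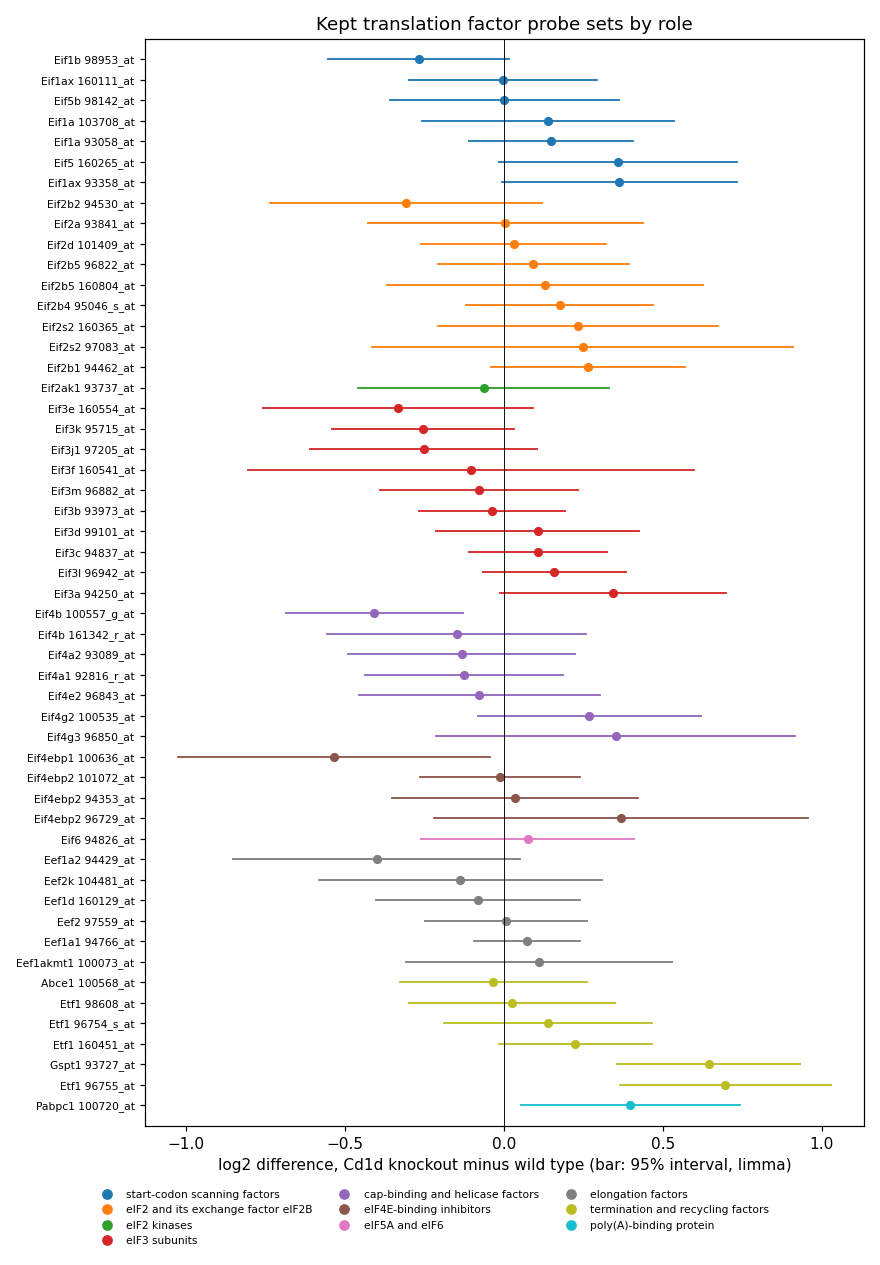
Log2 difference in signal, Cd1d knockout minus wild type (horizontal axis), of each of the 52 kept translation factor probe sets, coloured by role, with its 95% interval from limma. Most points lie within 0.3 of 0, and Gspt1 and probe set 96755_at of Etf1 lie farthest to the right at 0.64 and 0.70.

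The largest differences of the family were those of Gspt1 and of probe set 96755_at of Etf1, genes of termination. Termination is the step at which the ribosome meets a stop codon. Both differences were known when the family was picked, so their place at the top says nothing particular about this step. By limma their adjusted p was 0.175 and 0.204. Gspt1 encodes eRF3, the GTPase that works with the release factor eRF1. It read 618.1, 690.4, 585.7, 831.8 and 628.9 in knockout mice 1 to 5, against 482.4, 426.4, 411.5 and 388.5 in wild-type mice 1 to 4. Every knockout mouse lay above every wild-type mouse. The means were 671 ± 97.6 in knockout (SD, n = 5) and 427 ± 39.97 in wild-type skin (SD, n = 4), a log2 difference of 0.64 (SE 0.13, 95% interval 0.36 to 0.93) or 1.56-fold.

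The Gspt1 difference was about as large in the other settings that were tried. Leaving out any 1 array it ran from 0.56 to 0.70, and without knockout mouse 4 and wild-type mouse 2 together it was 0.56. Adding the array's hair follicle median to the fit gave 0.70. Within the arrays deposited with 9 decimals, which have only 1 wild-type mouse, it was 0.48.

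Etf1 encodes eRF1, the protein that recognises the stop codon and releases the chain. Its 5 probe sets differed among themselves. Probe set 96755_at read 812.2, 870.5, 735, 789.7 and 805.8 in knockout mice 1 to 5, against 554.1, 367.7, 468 and 627.3 in wild-type mice 1 to 4. Here too the groups did not overlap, and the log2 difference was 0.70 (SE 0.15). Wild-type mouse 2 was the lowest, and the log2 difference was 0.55 without it. Within the 9-decimal arrays, which have only 1 wild-type mouse, it was 0.49.

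The other kept Etf1 probe sets gave smaller differences. Probe set 160451_at read 431.4, 442.9, 404.2, 457.9 and 441.9 in knockout mice, against 345.2, 395.3, 405 and 348 in wild-type mice (log2 0.23, SE 0.11). Only knockout mouse 3 fell inside the wild-type range there. Probe set 96754_s_at averaged 824 ± 43.8 in knockout and 762 ± 155 in wild-type skin (SD, n = 5 and 4, log2 0.14), with wild-type mouse 2 at 531.1 below all others, and without that mouse the log2 difference was -0.03. Probe set 98608_at averaged 583 ± 94.3 in knockout mice and 570 ± 67.2 in wild-type mice (log2 0.03). The fifth, 161344_r_at, was not kept, at 16.9 to 54.4 in knockout and 24.4 to 52.2 in wild-type mice. The 4 kept probe sets therefore span 0.67 on the log2 scale for 1 gene, and which part of the transcript each reads is unknown here.

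Abce1, the ATPase that splits the ribosome after release, read 275.2, 310.1, 241.9, 215.6 and 274.1 in knockout mice, against 277.3, 285.1, 238.4 and 272 in wild-type mice. The groups overlapped, with a log2 difference of -0.03 (95% interval -0.33 to 0.26). Pabpc1, the cytoplasmic poly(A)-binding protein, which bridges the mRNA tail to eIF4G and also binds eRF3, read 3167, 2904, 2378, 2883 and 2711 in knockout mice, against 2405, 1472, 2297 and 2492 in wild-type mice. All knockout mice but mouse 3 lay above the wild-type range, and wild-type mouse 2 was far below the others. The log2 difference was 0.40 (SE 0.16), and 0.22 without wild-type mouse 2.

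**Figure D2:**
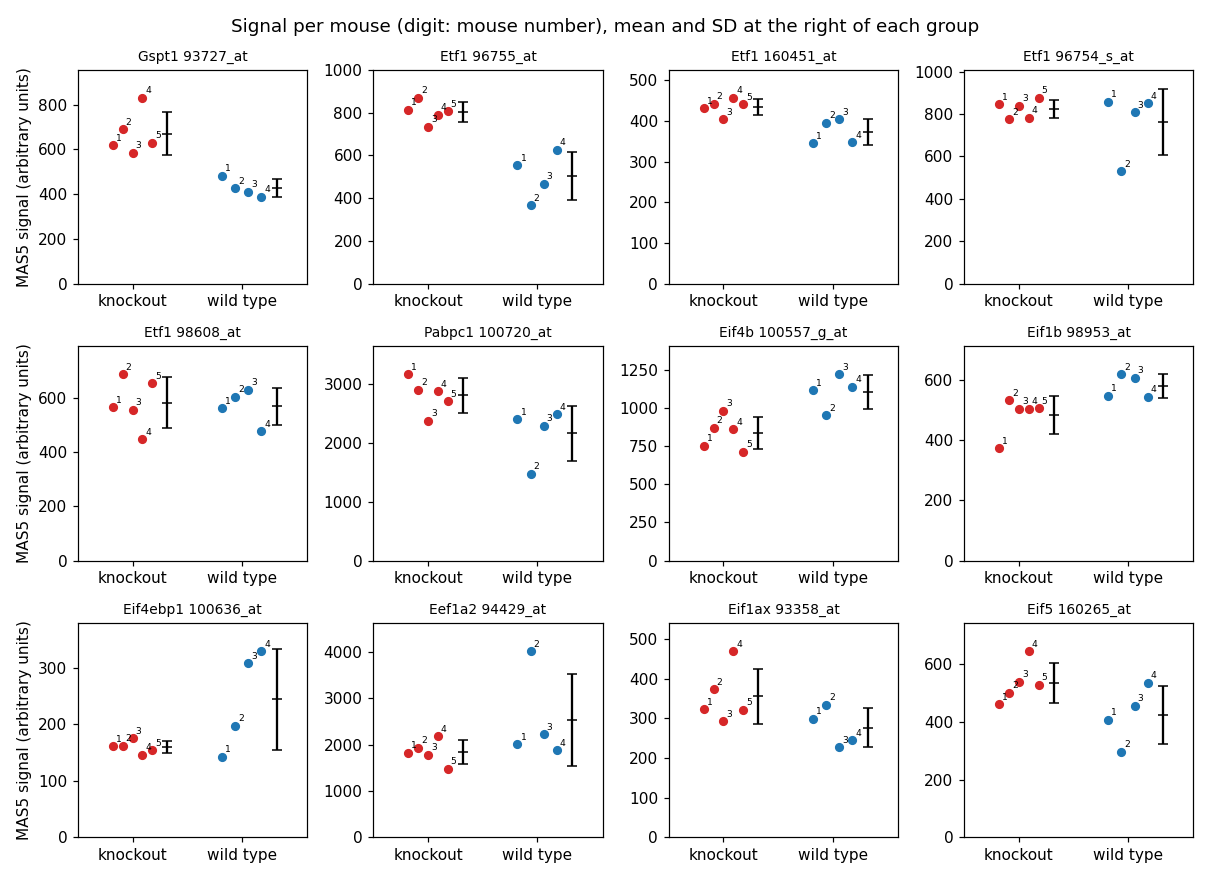
MAS5 signal (vertical axis, arbitrary units, from 0) of 12 probe sets in each of the 5 Cd1d knockout and 4 wild-type mice, with the mean and SD at the right of each group. Gspt1 and Etf1 96755_at separate the groups upward and Eif1b downward, whereas Eef1a2 and Pabpc1 each have wild-type mouse 2 far from the rest.

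The sequence before the start of Gspt1 is printed for its place among the members whose groups do not overlap. It is the RefSeq promoter of mouse assembly GRCm38.p6 from 150 bases before the annotated transcript start to 20 bases into the first exon, at chr16:11254306-11254475 (minus strand), read 5′ to 3′. Capitals here and in the promoters further on mark the letters of any of 5 motifs on either strand: the core of ETS family factors (CCGGAAG), the GC box (GGGCGG), the E-box bound by Myc among others (CACGTG), the response element of cyclic AMP (TGACGTCA) and the TATA box (with the letters TATAAA).
Gspt1: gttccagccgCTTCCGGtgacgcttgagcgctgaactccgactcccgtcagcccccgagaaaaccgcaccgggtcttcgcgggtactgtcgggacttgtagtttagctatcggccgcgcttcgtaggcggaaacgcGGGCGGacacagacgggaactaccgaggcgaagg
It holds 1 match to CCGGAAG, on the other strand, and 1 to GGGCGG close to the start.

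Among the start-codon scanning factors, 7 of 8 probe sets were kept, for 5 genes. Eif1b, a close relative of the scanning factor eIF1, was the 1 member below the wild-type range in every knockout mouse. It read 373.5, 533.9, 504.7, 504.9 and 506.5 in knockout mice 1 to 5, against 548.4, 619.4, 608.2 and 544.7 in wild-type mice 1 to 4. The gap was narrow, between knockout mouse 2 and wild-type mouse 4, and it closed when each array was centred on its median. The log2 difference was -0.27 (SE 0.13), and -0.18 without knockout mouse 1, the lowest of the 9. The promoter of Eif1b, shown as the lower counterpart to Gspt1, lies at chr9:120492456-120492625 (plus strand).
Eif1b: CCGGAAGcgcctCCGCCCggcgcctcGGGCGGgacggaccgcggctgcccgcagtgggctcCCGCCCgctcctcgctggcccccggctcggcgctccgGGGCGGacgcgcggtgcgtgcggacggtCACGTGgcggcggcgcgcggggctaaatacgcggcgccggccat
This window holds 4 matches to GGGCGG, 1 to CCGGAAG and 1 to CACGTG.

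Eif5, which makes eIF2 hydrolyse its GTP at the start codon, read 462.1, 501.9, 540.3, 645.6 and 528.8 in knockout mice, against 407.6, 297.1, 457.2 and 536.5 in wild-type mice. The log2 difference of 0.36 (SE 0.17) leaned on wild-type mouse 2 and was 0.20 without it. The scanning factor eIF1A is read through Eif1ax and its close copy Eif1a, whose near-identical sequences may share signal. Eif1ax gave 0.36 (SE 0.17) at probe set 93358_at but 0.00 at 160111_at, whereas both Eif1a probe sets gave small values of 0.14 and 0.15. At 93358_at the knockout mice read 323.2, 373.6, 293.2, 469.3 and 322.1, against 299.0, 334.4, 227.5 and 244.5 in wild-type mice, so the groups overlapped. Without knockout mouse 4, the highest, the log2 difference of 93358_at was 0.26. Eif5b, which joins the ribosomal subunits, averaged 116 ± 10.7 in knockout and 117 ± 25.6 in wild-type skin (SD, n = 5 and 4).

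For the subunits of eIF2 and its exchange factor eIF2B, 6 of 7 kept probe sets had higher values in the knockout, beside 51.2% of all kept probe sets. Eif2b5 and Eif2s2 count with 2 probe sets each. The median log2 difference of the 7 was 0.18, with a range of -0.31 to 0.27. Eif2a and Eif2d, separate factors that can also bring tRNA to the ribosome, gave 0.00 and 0.03. Of these 9 probe sets 0 had an adjusted p, and 0 an unadjusted p, under 0.05 by limma. The eIF2B subunits differed in sign: Eif2b1 averaged 216 ± 19.5 in knockout and 181 ± 29.4 in wild-type mice (log2 0.27), while Eif2b2 averaged 193 ± 51.1 in knockout and 232 ± 18.8 in wild-type mice (log2 -0.31). In Eif2b2 the knockout mice split, with mice 2 and 4 at 127.7 and 151.9 and the others between 208.7 and 243.4, and the log2 difference was -0.17 without mouse 2. Eif2b4 and both probe sets of the catalytic subunit Eif2b5 gave 0.18, 0.13 and 0.09, which became 0.18, -0.04 and 0.02 without knockout mouse 4. Eif2s2, the beta subunit of eIF2, gave 0.23 and 0.25 at its 2 probe sets, both read near the filter signal.

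Of the 4 kinases that phosphorylate eIF2 under stress, only Eif2ak1, the haem-regulated kinase, was kept. It averaged 249 ± 60.9 in knockout and 255 ± 25.1 in wild-type skin (SD, n = 5 and 4, log2 -0.06), with 176 to 325.3 in knockout and 230.5 to 283.6 in wild-type mice. Eif2ak2, the kinase PKR that interferon induces, read 31 to 56.4 in knockout and 24 to 51.7 in wild-type mice, about the filter signal.

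The eIF3 subunits, which form the scaffold of the initiation complex, were the largest role group with 10 kept probe sets for 10 genes. Their median log2 difference was -0.06, with 4 higher and 6 lower. The median of the 10 genes in each array, relative to each gene's mean over the 9 arrays, stayed within -0.03 to 0.08 in knockout and -0.08 to 0.02 in wild-type mice. Eif3c had the smallest spread within groups and averaged 1503 ± 108 in knockout and 1393 ± 74.4 in wild-type mice (log2 0.11). The ends of the range were Eif3a, the largest subunit, at 237 ± 36.4 in knockout and 188 ± 34.6 in wild-type mice (log2 0.34, and 0.22 without wild-type mouse 2), and Eif3e at 146 ± 19.3 in knockout and 189 ± 60.2 in wild-type mice (log2 -0.33). Wild-type mouse 2 was the highest for Eif3e at 277.8, and the log2 difference was -0.13 without it. Eif3j1 and Eif3k each gave -0.25, but Eif3j1 gave -0.12 without wild-type mouse 4, its highest at 835.8, and Eif3k -0.17 without wild-type mouse 2.

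Eif3f had the widest spread of all members within groups (SD 0.53 on the log2 scale), set by knockout mouse 4 at 28.3 beside 54.1 to 88.6 in the other knockout mice and 51.2 to 76.2 in wild-type mice. Its promoter is printed because a run of pyrimidines covers its annotated start. The mRNAs of many translation factors are known to be controlled through mTOR by pyrimidines that begin the mRNA. The run is counted on both sides of the start, so it is not a measure of that feature. It lies at chr7:108934265-108934434 (plus strand).
Eif3f: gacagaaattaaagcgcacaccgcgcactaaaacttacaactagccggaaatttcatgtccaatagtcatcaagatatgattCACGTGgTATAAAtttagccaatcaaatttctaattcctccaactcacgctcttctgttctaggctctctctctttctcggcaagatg
The window holds 1 CACGTG and 1 TATAAA, and the run of C and T letters that includes the annotated first base is 15 letters long.

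The cap-binding and helicase factors held 2 members higher and 5 lower in the knockout, with a median log2 of -0.12. Eif4b, which stimulates the helicase eIF4A, read 752.5, 870.5, 981.7, 860.4 and 711.1 at probe set 100557_g_at in knockout mice 1 to 5, against 1116, 950.7, 1219 and 1137 in wild-type mice 1 to 4. All knockout mice but mouse 3 lay below the wild-type range. The log2 difference was -0.41 (SE 0.13, 95% interval -0.69 to -0.13), and leaving out any 1 array kept it between -0.48 and -0.35. The second kept probe set, 161342_r_at, had a mean of 263 ± 54.4 in knockout mice and 290 ± 53.6 in wild-type mice (log2 -0.15), and 2 more were too dim to keep. The Eif4b promoter lies at chr15:102073623-102073792 (plus strand).
Eif4b: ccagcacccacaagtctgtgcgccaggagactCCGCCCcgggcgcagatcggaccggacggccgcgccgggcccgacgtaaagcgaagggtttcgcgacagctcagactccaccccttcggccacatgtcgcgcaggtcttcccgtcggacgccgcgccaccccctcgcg
It holds 1 GGGCGG, on the other strand, and none of the other motif letters.

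The other members of the group were less clearly apart. Eif4a1, the main helicase, averaged 224 ± 28.3 in knockout and 244 ± 31.5 in wild-type mice (log2 -0.12), and its relative Eif4a2 gave -0.13. Eif4g2, which drives cap-independent initiation, read 181.6, 143.2, 163.4, 196.7 and 122 in knockout mice, against 136.9, 115, 138.5 and 139.7 in wild-type mice (log2 0.27). Knockout mouse 5 fell inside the wild-type range and the others above it. The log2 difference of Eif4g2 was 0.20 without wild-type mouse 2 and 0.19 without knockout mouse 4. Eif4g3, a paralogue of the scaffold eIF4G, averaged 162 ± 32.7 in knockout and 132 ± 51.0 in wild-type mice (log2 0.35). It gave 0.16 without wild-type mouse 2, 0.92 within the 9-decimal arrays and -0.04 within those with 7 decimals.

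Eif4ebp1 encodes the best known inhibitor of eIF4E, which mTOR switches off by phosphorylation, and it had the most negative difference of the family. It read 161.3, 162.1, 174.9, 146.3 and 154 in knockout mice 1 to 5, against 142.1, 197.6, 308 and 329.1 in wild-type mice 1 to 4. The knockout values were close together, and it was the wild-type mice that spread, with mouse 1 below every knockout mouse and the other 3 above. The log2 difference was -0.53 (SE 0.22), with -0.77 without wild-type mouse 1 and 0.15 within the 9-decimal arrays, where wild-type mouse 1 is the only wild-type mouse. Eif4ebp2, its relative, averaged 1398 ± 117 in knockout and 1412 ± 166 in wild-type skin at its brightest probe set (log2 -0.01). Its other probe sets gave 0.04 and 0.37, the last with knockout mouse 4 at 138.8 and a log2 difference of 0.17 without it, beside 50.2 to 94 in the other knockout mice and 53.3 to 67.1 in wild-type mice.

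Among the elongation factors, Eef1a1, which delivers aminoacyl-tRNA to the ribosome in most tissues, had the smallest spread of all members (within-group SD 0.08 on the log2 scale). It read 13155, 13164, 13138, 14608 and 12523 in knockout mice, against 11972, 13220, 13301 and 12156 in wild-type mice (log2 0.07, 95% interval -0.09 to 0.24). Eef2, which moves the ribosome by a codon, averaged 4506 ± 509 in knockout and 4489 ± 551 in wild-type mice (log2 0.01). Eef2k, the kinase that inactivates it, gave -0.14, Eef1d, a subunit of the exchange factor, -0.08, and Eef1akmt1, a lysine methyltransferase of elongation factor 1A, 0.11. Eef1akmt1 moved with single mice, to 0.30 without wild-type mouse 2 and 0.03 without wild-type mouse 3 or 4, and Eef1d gave -0.20 without knockout mouse 4 and -0.01 without wild-type mouse 2. For these genes the groups overlapped.

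Eef1a2 is the form of elongation factor 1A that replaces Eef1a1 in adult muscle and neurons. It read 1820, 1935, 1783, 2184 and 1482 in knockout mice 1 to 5, against 2005, 4014, 2226 and 1882 in wild-type mice 1 to 4. Wild-type mouse 2 stood at 1.97 times the mean of the other wild-type mice, and the log2 difference of -0.40 (SE 0.21) became -0.15 without it. That array also had the highest signal for 7 of the 10 skeletal muscle genes, while knockout mouse 4 had it for 2 and wild-type mouse 1 for 1. Actn3, a muscle actinin picked with its values in view, read 5528 there, beside 2147 to 2663 in the other wild-type mice. For Myh1, a muscle myosin, wild-type mouse 2 was the lowest wild-type mouse, at 2188 beside 2720 to 3670. All 10 muscle genes had lower values in the knockout, with a median log2 of -0.20 and 0 passing limma over all genes (2 at an unadjusted p under 0.05). Their summed signal ran from 37952 to 45664 in knockout and from 41716 to 59368 in wild-type mice. The part of muscle content in the Eef1a2 value was not tested.

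The promoters of the pair are set side by side because the genes encode near-identical proteins under different tissue control. That of Eef1a1 lies at chr9:78481705-78481874 (minus strand) and that of Eef1a2 at chr2:181156996-181157165 (minus strand).
Eef1a1: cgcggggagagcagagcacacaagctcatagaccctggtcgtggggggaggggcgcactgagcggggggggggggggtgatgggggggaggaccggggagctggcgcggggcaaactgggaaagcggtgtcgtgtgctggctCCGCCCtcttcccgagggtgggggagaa
Eef1a2: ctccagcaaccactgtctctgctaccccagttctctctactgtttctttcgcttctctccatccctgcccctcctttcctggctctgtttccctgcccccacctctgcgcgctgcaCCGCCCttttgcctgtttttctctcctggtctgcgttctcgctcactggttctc
Each holds 1 GGGCGG, on the other strand, and no other motif letters. A run of 10 C or T letters covers the annotated start of Eef1a1.

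Eif6, which keeps the large ribosomal subunit from joining too early, averaged 581 ± 82.8 in knockout and 554 ± 104 in wild-type skin (SD, n = 5 and 4, log2 0.08).

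**Figure D3:**
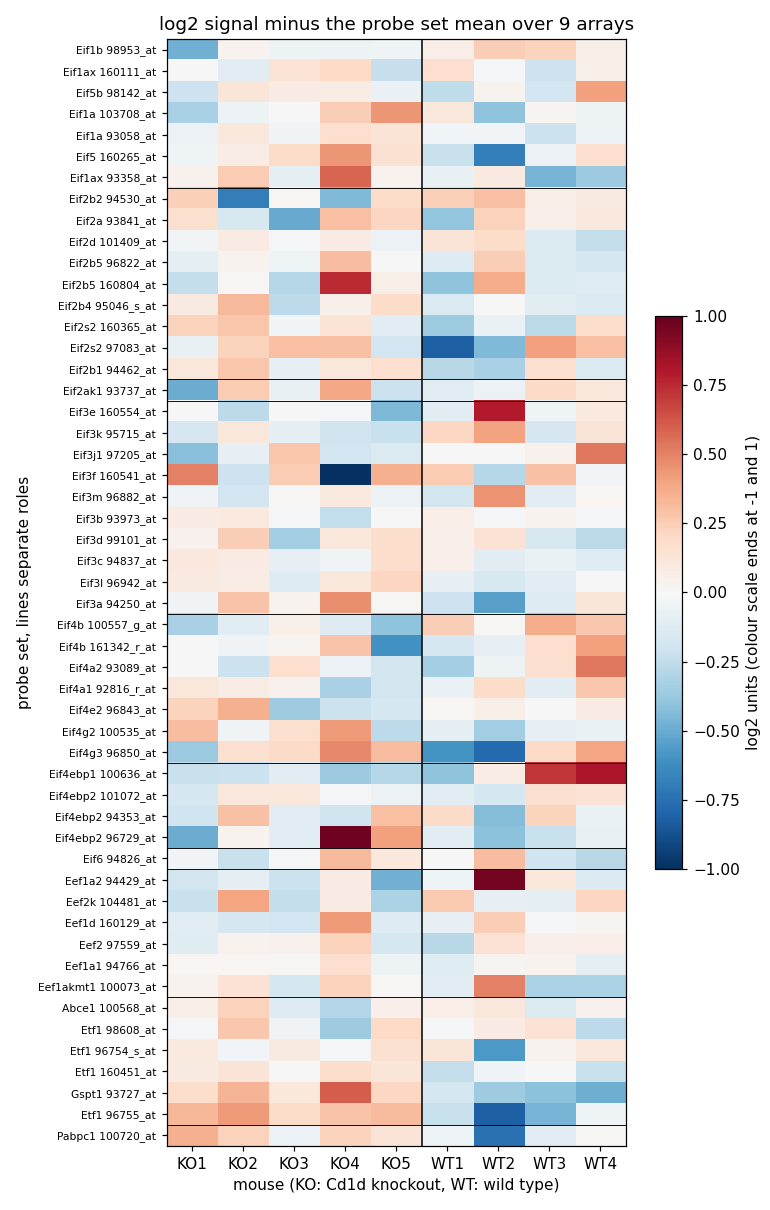
Log2 signal of the 52 kept translation factor probe sets (rows, grouped by role) in the 9 mice (columns), each minus its mean over the 9 arrays, with the colour scale ending at -1 and 1. Knockout mouse 4 and wild-type mouse 2 hold many of the strongest colours, while Gspt1 and Etf1 96755_at change colour between the groups.

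Leaving out 1 array moved the log2 difference by over 1.5 times, or turned its sign, for 40 of the 52 probe sets, many of them close to 0. Small differences pass such a ratio easily (the median size among the members was 0.14). The share over all kept probe sets was not counted, so the 40 says nothing particular about the members. Of the 52 kept probe sets, 23 had their highest or lowest value in knockout mouse 4 and 20 in wild-type mouse 2, a share of 44.2% and 38.5%. The same shares over all kept probe sets were 41.2% and 36.7%. The median SD within groups was 0.22 on the log2 scale for the members, against 0.27 for all kept probe sets. MAS5 signals vary less where they are bright, and among probe sets with a mean signal over 200, 35 members had a median SD of 0.20 and all 3762 such probe sets 0.24.

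The promoter letters were counted in the RefSeq windows of 300 bases, 250 before and 50 after each start, which were matched for 41 of the 51 genes. CCGGAAG on either strand was in 15 of the 41 (36.6%), against 19.9% of the 4714 genes with a kept probe set and a window and 9.93% of all 27025 genes with a window. CACGTG was in 10 (24.4%), against 12.4% and 8.09%. GGGCGG was in 29 (70.7%), against 69.0% and 38.2%. TGACGTCA was in 2 (4.88%), against 3.31% and 2.03%, and TATAAA in 3 (7.32%), against 10.4% and 15.7%. A run of at least 5 C or T letters over the annotated first base was in 5 (12.2%), against 11.6% and 11.8%. These are matches of letters, not shown binding sites, the motifs were chosen with the members known, and genes with several annotated starts had more windows to match.

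**Figure D4:**
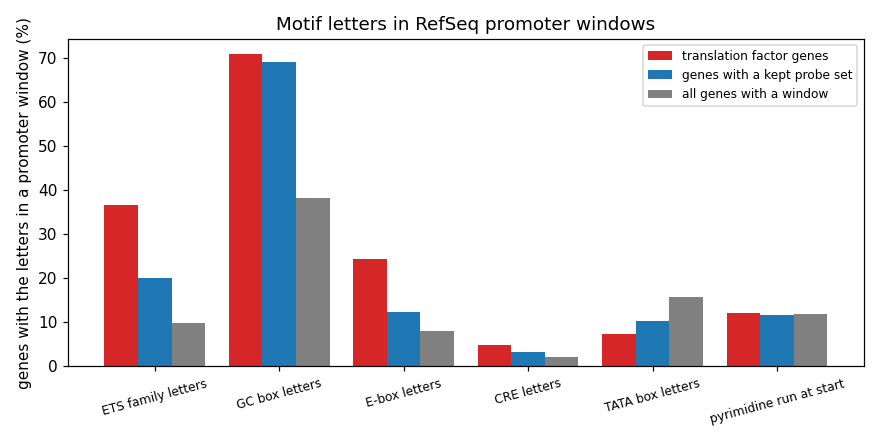
Share of genes (vertical axis, percent) with the letters of each motif in a RefSeq promoter window, for the 41 translation factor genes, the 4714 genes with a kept probe set and all 27025 genes with a window. The ETS family letters stand at 36.6%, 19.9% and 9.93% in these sets, and the pyrimidine run at the start at about 12% in each.

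Other genes of the translation machinery were listed by function and given 1 probe set a gene, the one with the highest mean signal; the members by the same rule had a median log2 difference of 0.01 over 42 genes. No gene of these lists passed limma's adjusted threshold, and the unadjusted calls are given with each, beside 8.56% of all 5855 genes. The cytosolic ribosomal proteins, the factors' substrate, had a median of -0.02 over 27 kept genes, 11 higher and 16 lower, with 0 unadjusted calls. The aminoacyl-tRNA synthetases, which charge the tRNAs, had a median of 0.08 and 16 of 21 higher, beside 51.3% of all genes. The 1 unadjusted call was Rars (arginyl-tRNA synthetase), at 511 ± 95.5 in knockout and 345 ± 18.8 in wild-type mice (log2 0.55). Its groups did not overlap, as for 3.11% of all genes. Knockout mice 3 and 4 read 406.5 and 411.6 for Rars, and the other knockout mice 553.9 to 612.6. The most negative difference was that of Kars at -0.73, with signals of 12.1 to 100.5. The mitochondrial translation factors had a median of -0.01 over 4 genes and those of ribosome rescue and nonsense-mediated decay -0.12 over 3 genes, with 0 unadjusted calls in either.

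The mTOR and cap-complex regulators had a median of -0.04, with 6 of 16 genes higher and 2 unadjusted calls. Fmr1, the fragile X protein that represses translation, averaged 150 ± 20.9 in knockout and 97.3 ± 19.5 in wild-type mice (log2 0.64), and Pdcd4, an inhibitor of eIF4A, 702 ± 84.9 in knockout and 505 ± 154 in wild-type mice (log2 0.53). Wild-type mouse 2 was the lowest for Pdcd4 at 310.2, and the log2 difference was 0.31 without it. The list of the integrated stress response, which phosphorylated eIF2 sets off, also holds Hspa5, Xbp1 and Dnajc3 of the wider response to unfolded proteins. Its 11 kept genes had a median of 0.01, with 6 higher and 1 unadjusted call. That was Atf4, the main transcription factor of the integrated stress response. It averaged 740 ± 65.7 in knockout and 888 ± 76.6 in wild-type mice (log2 -0.26).

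**Figure D5:**
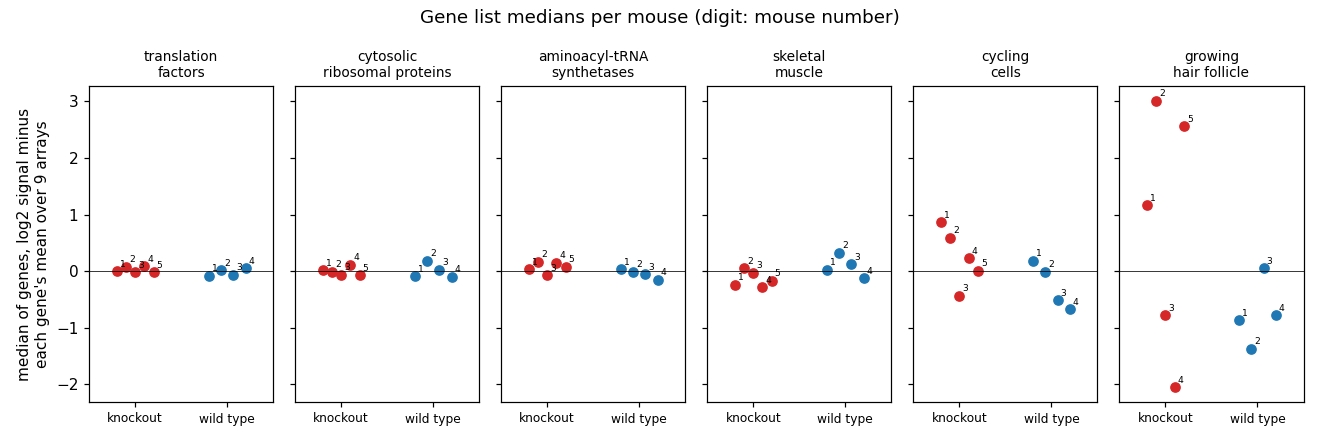
Median over the genes of a list of log2 signal minus each gene's mean over the 9 arrays (vertical axis), for each of the 5 Cd1d knockout and 4 wild-type mice, in 6 lists. The translation factors stay between -0.08 and 0.09 in all 9 mice, where the hair follicle list runs from -2.05 to 3.01.

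The array medians of the hair follicle and cycling-cell genes varied far more than those of the translation factors. The 15 kept genes of the growing hair follicle had array medians of 1.16, 3.01, -0.78, -2.05 and 2.56 in knockout mice 1 to 5, against -0.87, -1.38, 0.05 and -0.78 in wild-type mice 1 to 4, with summed signals of 2119 to 37700 in knockout and 1795 to 3994 in wild-type mice. All 15, of 19 on the array, had higher values in the knockout (median log2 1.91). Of them 0 passed limma and 7 (46.7%) had an unadjusted p under 0.05, beside 8.56% of all 5855 genes. The array medians of the 16 kept genes of cycling cells, of 18 on the array, ran from -0.43 to 0.86 in knockout and from -0.67 to 0.19 in wild-type mice. All 16 had higher values in the knockout (median log2 0.52), with 0 passing and 5 (31.25%) at an unadjusted p under 0.05. Over the same mice the medians of the translation factors were 0.00, 0.08, -0.02, 0.09 and -0.02 in knockout and -0.08, 0.02, -0.06 and 0.05 in wild-type skin. Those of all 5855 genes ran from -0.003 to 0.05 in knockout and from -0.05 to 0.04 in wild-type mice. A median near 0 is therefore not particular to the translation factors. Fitted together with that hair follicle median, the 52 probe sets had a median difference of 0.06 and again 0 passed. All 7 macrophage genes had lower values in the knockout (median log2 -0.37), with summed signals of 6806 to 8762 in knockout and 9012 to 10166 in wild-type mice. Of them 0 passed limma and 5 (71.4%) had an unadjusted p under 0.05. The 3 leukocyte genes overlapped between the groups, with log2 differences of -0.07 for Itgam, -0.06 for Ptprc and 0.02 for Cd3e. Of the 3 adipocyte genes 2 had higher and 1 lower values in the knockout (median log2 0.19). The 3 red cell genes had a median log2 of -1.38, 2 of them passing, beside 2 of all 5855 genes. Their summed signals were 1324 to 2013 in knockout and 3293 to 5017 in wild-type mice. The part of such marker lists in the values of Gspt1, Etf1 and Eif4b was not tested, apart from the hair follicle covariate.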

How the data were processed

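Whole-skin RNA of 5 Cd1d knockout and 4 wild-type mice was measured on 9 arrays. Per the labels, Microarray Suite 5.0 produced the signals. What the authors deposited is the natural log of each signal, as the values show: every exponential is a whole multiple of 0.1 within 0.002, and the trimmed means are 200.11 to 200.13 in every array. The log step is not given in the sources used here. They were converted to log2 signals here, without a pseudocount. The array has 12488 probe sets, 66 of them controls, which were left out; 1 value is missing, in no kept probe set. Of the others 10833 have 1 gene symbol, 396 several (given no name) and 1193 none; all 72 members matched the RefSeq table by Entrez identifier.

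Differences were fitted in R 4.3.3 with limma 3.58.1 (eBayes with trend, two-sided) over all 7658 kept probe sets. The procedure was also run on simulated arrays with independent noise, equal in all arrays. That check does not cover arrays that stand apart or genes that vary together, as in these data. Arrays have no sequencing depth, so the number of mice limits precision. Named genes were the termination factors, Pabpc1, core factors, up to 4 probe sets per role with the smallest p, those without overlap, those with opposite signs and the 3 with the widest spread, plus up to 3 per other list; a few more, and Actn3, were picked with their values in view. The members and lists were chosen with earlier results of these data known. Promoter sequences are RefSeq's (GRCm38.p6).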

Additional observations from a re-analysis of the deposited data

Results flagged for a closer look

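Of 74 groups of values examined, 5 had a single mouse whose gap to its nearest neighbour was a large part of the whole range; chance flags about 1 in 20. Wild-type mouse 2 was low for Eif4g2 at 115.0 (others 136.9 to 139.7), for Pabpc1 at 1472 (others 2297 to 2492) and for Etf1 96754_s_at at 531.1 (others 807.5 to 857.5). Wild-type mouse 4 was high for Eif3j1 at 835.8 (others 576.8 to 597.5). Knockout mouse 1 was low for Eif1b at 373.5 (others 504.7 to 533.9).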

How the results depend on the processing

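In each of the 23 alternatives where a count was made, 0 translation factor probe sets passed limma's adjusted p of 0.05; the 9-decimal arrays have 1 wild-type mouse and give values only. The median log2 difference ran from 0.03 to 0.07 with 1 array left out and was -0.01 with median centring, where that of all kept probe sets was -0.04. It was 0.13 within the 9-decimal arrays. The number of members without overlap was 3 to 9 with 1 array left out: 9 without knockout mouse 3 (6.63% of all probe sets in that setting), 6 without wild-type mouse 3 (4.56%), and 5 without wild-type mouse 2 (6.69%) or 4 (6.65%). It was 6 (9.34%) without knockout mouse 4 and wild-type mouse 2 (chosen after seeing the data), 17 within the 7-decimal arrays and 28 within the 9-decimal arrays; fewer arrays overlap less often by construction, and over all probe sets the shares in these last settings were 28.6% and 48.8%. Under median centring Eif4b took the place of Eif1b among the 3. Replicate numbers 1 to 4 occur in both groups. The correlations of same-numbered arrays were 0.11, -0.01, -0.05 and 0.02. No pairing by number was seen in these 4 values, which are too few to exclude one. With the replicate block, which leaves knockout mouse 5 without a partner, 0 passed, the median was 0.05 and 4 did not overlap (4.27% of all). Of 36 named probe sets 23 kept their sign in each alternative tried and 0 passed in any.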
